A study of Mus musculus with 4 samples.

Results

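The glycolysis group held 37 genes chosen by name, covering glucose uptake, the steps of glycolysis, lactate production and export, and the pyruvate dehydrogenase complex with its kinases, out of 18193 genes that the arrays named. They were read on 4 Affymetrix mouse arrays, on which each transcript is measured by 1 or more probe sets of short oligonucleotides. The RNA was labelled as coming from MC/9, an immortal mast cell line of (B6 X A/J)F1 background derived from liver, with an age of 13 days on the labels. The BER+DNP cells received berberine, an alkaloid of plants known to inhibit complex I of the respiratory chain, at 10 microM together with anti-DNP IgE, an antibody to the hapten dinitrophenyl, at 500 microg/ml, the BER cells received berberine at 10 microM, and the DNP cells received the antibody at 500 microg/ml. These treatments lasted 24 h and were followed by 6 h of culture. The treatment label of the BER+DNP cells names the combination without repeating the doses. The control cells were untreated and the labels give no times for them. Medium for the line, control included, contained serum, 2-mercaptoethanol and rat T-STIM, a culture supplement. Each group held 1 array, so the differences have no replicate error and no p-value, and the number of arrays limits the precision.

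Glycolysis splits glucose into pyruvate and yields ATP without oxygen. Pyruvate is either reduced to lactate and exported, or enters mitochondria, where the pyruvate dehydrogenase complex turns it into acetyl-CoA. Cells whose respiratory chain is inhibited, as by a complex I inhibitor, rely more on glycolysis for ATP, largely through control of enzymes and transporters that an mRNA measurement does not see. Activated mast cells are known to use glycolysis for degranulation and cytokine production.

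All values below are log2 signals as deposited or differences between them, so a difference of 1 is 2-fold. The array medians lay between 3.13 and 3.15, and Pearson correlations between arrays, across probe sets, between 0.988 and 0.991. A gene was read by its brightest probe set and counted as measured when the mean of its 4 signals reached the median of all probe sets, 3.14. Of the 14 mast cell markers examined, 6 were measured. These were the transcription factor gene Gata2 with a mean of 5.87, the histamine synthesis gene Hdc with 5.50, the protease genes Tpsb2, Mcpt4 and Cma1 with 4.08, 3.85 and 3.31, and the Fc receptor chain gene Fcer1g with 3.56. Second probe sets of Hdc and Tpsb2 had means of 2.37 and 2.28, below the filter, and that of Gata2 had 3.95. Kit, Cpa3, Fcer1a and Ms4a2 had means between 2.43 and 2.78, and Tpsab1, Hpgds, Mitf and Srgn had 2.77, 2.46, 2.08 and 1.95. Of 7 epithelial markers 6 were measured, led by the keratin gene Krt17 with a mean of 9.60, and of 7 markers of blood cells in general 3 were measured. Markers of mast cells thus lay on both sides of the filter, the genes of the IgE receptor's alpha and beta chains (Fcer1a and Ms4a2) below it, and the values below describe the RNA under its label. Because the arrays measured bulk RNA, a lower signal cannot tell fewer cells of one kind from less transcript in each.

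Of the 37 members, 34 had at least 1 probe set naming that gene alone, 74 probe sets in all. Gpi1, Pfkfb1 and Eno1 had none among those named here. Gapdh was named alone by 3 control probe sets of the array only and is described apart. Of the other 33 genes, 27 were measured and 6 (Slc2a3, Pgam1, Eno2, Slc16a1, Dlat and Pdk4) read below the filter. A further 3 probe sets are annotated to Gapdh together with its pseudogenes, and 1 to Hk1 together with the ribosomal protein gene Rpl17, and none of these was used.

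Differences were small throughout the group. No measured member reached 1.5-fold in BER against control, where 1.99% of all 12585 measured genes did, nor in BER+DNP against DNP (1.21% of all genes), DNP against control (1.43%) or BER+DNP against BER (0.914%). In BER+DNP against control 1 of 27 members passed 1.5-fold, Pdk3, which was lower. There 1.78% of all genes passed in either direction and 0.874% were lower. The members' counts lay near these background shares. The widest gap between any of the 4 arrays reached 1.5-fold in 2 of 27 members, Pdk3 and Ldha (7.41%, against 6.56% of all genes), and the median gap was 0.33 for members and 0.29 for all genes. The narrowest was that of Pdk1, a pyruvate dehydrogenase kinase gene, at 0.05.

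The lean of the group was toward lower signals with berberine. The median difference of the members was -0.11 in BER minus control, where the median of all genes was 0.00, and -0.08 in BER+DNP minus DNP, where it was -0.02. The median in BER minus control was -0.03 with the filter at the 75th percentile of signal and -0.05 with no filter, so its size depended on which dim genes entered. These pairs of arrays share no array. Below 0 in both lay 13 of 27 members (48.1%), against 29.7% of all genes, and above 0 in both lay 3 (11.1%), against 25.4% of all genes. These counts include differences close to 0. At -0.2 or lower in both lay 3 of 27 members and 741 of 12585 genes, and at 0.2 or higher in both 1 member and 465 genes. With each gene read by the median of its probe sets, 5 of 21 members lay above 0 in both. The BER array gave the lowest of the 4 signals in 15 members (55.6%, against 27.0% of all genes), and the DNP array the highest in 13 (48.1%, against 29.5%). Across the 27 members the differences in the berberine pairs correlated at Pearson's r = 0.22 and Spearman's rho = 0.15, and across all genes at r = 0.23, a description over genes of the same 4 arrays.

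Some control probe sets also differed between these arrays. Poly-A control transcripts, which are added during sample preparation, had a median difference of -0.48 in BER minus control and -0.14 in BER+DNP minus DNP over 24 probe sets. The array's own beta-actin controls gave -0.57 in BER minus control and -0.59 in BER+DNP minus DNP at the 5′ end of the transcript. At its 3′ end they gave -0.31 in BER minus control and -0.22 in BER+DNP minus DNP. The parts of RNA preparation and of transcript level in these beta-actin values were not tested. The Gapdh controls gave between -0.03 and 0.12 in BER minus control and between -0.08 and 0.02 in BER+DNP minus DNP. Hybridisation controls had medians of 0.03 and 0.10 in these comparisons. The part of any of these controls in the lean of the glycolysis genes was not tested.

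**Figure D1:**
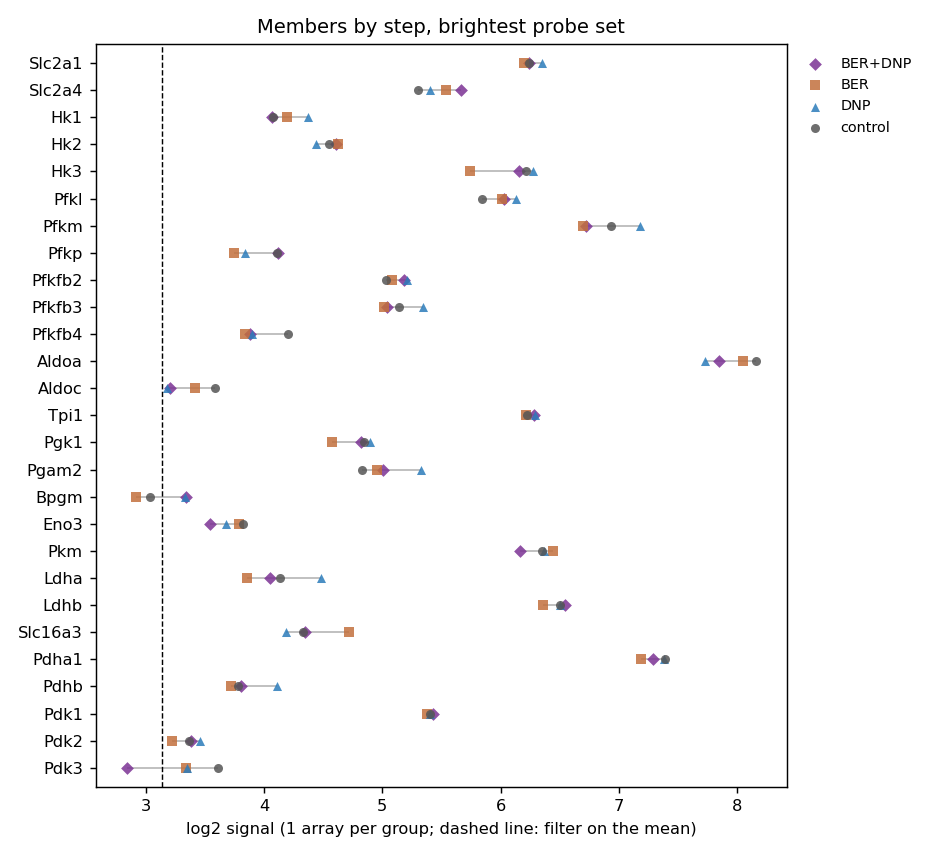
Log2 signal (horizontal axis) of the brightest probe set of each of the 27 measured members, listed in pathway order, on the BER+DNP, BER, DNP and control arrays (1 array per group, no error bars). The 4 symbols of most genes lie close together, the Pdk3 symbols span 0.77 and the Pdk1 symbols 0.05.

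**Figure D2:**
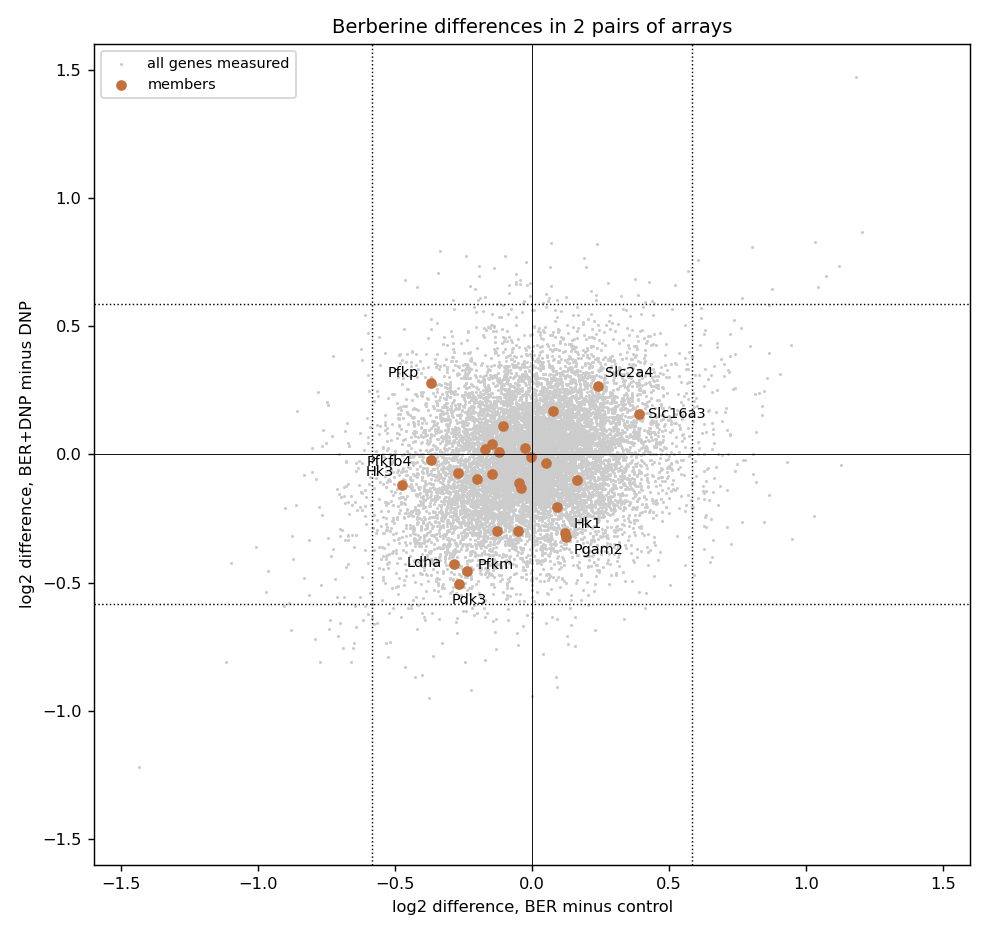
Log2 difference in BER+DNP minus DNP (vertical axis) against BER minus control (horizontal axis) for all 12585 measured genes in grey and the 27 measured members in orange, with dotted lines at 1.5-fold. No member lies outside the dotted lines on either axis, and 13 lie below 0 on both axes, against 3 above 0 on both.

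Pdk3 and Slc16a3 marked the ends of the group by the mean of the berberine pairs, -0.39 for Pdk3 and 0.27 for Slc16a3. Pdk3 encodes a kinase that switches off pyruvate dehydrogenase, and Slc16a3 encodes MCT4, the exporter of lactate from glycolytic cells. Their promoter windows, from 250 bases before to 50 bases after a transcript start, are shown because they belong to the members with the lowest and the highest mean, from RefSeq on GRCm38.p6. That of Pdk3 lies at chrX:93832101-93832400 on the minus strand and that of Slc16a3 at chr11:120948817-120949116 on the plus strand. Capitals mark ACGTG on either strand, the core letters of the hypoxia response element bound by HIF.
Pdk3: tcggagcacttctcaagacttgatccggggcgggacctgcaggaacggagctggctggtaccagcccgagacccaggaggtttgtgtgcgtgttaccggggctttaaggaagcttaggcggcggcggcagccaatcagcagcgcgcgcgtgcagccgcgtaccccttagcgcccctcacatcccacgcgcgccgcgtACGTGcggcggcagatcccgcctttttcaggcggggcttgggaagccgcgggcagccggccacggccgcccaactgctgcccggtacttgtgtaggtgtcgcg
Slc16a3: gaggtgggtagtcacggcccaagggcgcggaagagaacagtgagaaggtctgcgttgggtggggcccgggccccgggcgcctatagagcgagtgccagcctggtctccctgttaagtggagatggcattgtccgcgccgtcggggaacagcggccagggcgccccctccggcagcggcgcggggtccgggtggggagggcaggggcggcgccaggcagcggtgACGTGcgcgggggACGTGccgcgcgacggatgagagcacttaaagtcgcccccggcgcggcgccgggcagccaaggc

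The Pdk3 window holds ACGTG 1 time, starting 53 bases before the transcript start, and the Slc16a3 window 2 times, starting 27 and 14 bases before it. The longer motif CACGTG, the E-box bound by MYC with MAX and by MLX with its partners, contains ACGTG and is in neither window. RefSeq windows were found for 35 of the 37 members, 54 windows in all, and Slc2a3 and Slc2a4 had no entry. ACGTG was found on either strand in 23 of the 54 (42.6%), against 19.6% of 32851 windows of the same length, and CACGTG in 6 (11.1%), against 7.15%. Windows on chr18 were left out of these counts. The 23 windows with ACGTG belong to 19 of the 35 genes. Windows of 1 gene can overlap. Genes with ACGTG in a window included Ldha and Pfkm, below 0 in both berberine pairs, and Slc16a3 and Hk2, above 0 in both. A match describes letters and is not a site of binding.

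Glucose enters cells through facilitative transporters. Slc2a1, which encodes the widely expressed transporter GLUT1, had signals of 6.24 in BER+DNP, 6.20 in BER, 6.35 in DNP and 6.24 in control, so all 4 arrays lay within 0.16. Slc2a4, which encodes the insulin-responsive transporter GLUT4, had 5.67 in BER+DNP, 5.54 in BER, 5.40 in DNP and 5.30 in control. Both berberine arrays lay above both arrays without it, with differences of 0.24 in BER minus control and 0.27 in BER+DNP minus DNP. Its other probe set gave 0.06 and 0.31 in those comparisons. Of 11 members with several measured probe sets, Slc2a4 was the one with all of them above 0 in both (9.09%, against 5.28% of all such genes). The 4 probe sets of Slc2a3, which encodes GLUT3, had means of 2.27 to 3.01, below the filter.

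Hexokinases phosphorylate glucose and so trap it in the cell. Hk3, the hexokinase gene typical of myeloid cells, had 6.15 in BER+DNP, 5.74 in BER, 6.27 in DNP and 6.21 in control. The BER array alone stood apart, with the lowest difference of the group in BER minus control, -0.48, while BER+DNP minus DNP gave -0.12. Hk2, the inducible form, had 4.61 in BER+DNP, 4.63 in BER, 4.44 in DNP and 4.55 in control, a spread of 0.19. Hk1, the form found in most cells, had 4.07 in BER+DNP, 4.19 in BER, 4.37 in DNP and 4.08 in control. The DNP array was highest for Hk1 and also for its second probe set (4.08 in BER+DNP, 3.90 in BER, 4.12 in DNP and 3.77 in control), with DNP minus control at 0.30 and 0.35.

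Phosphofructokinase commits sugar to glycolysis. Its muscle-type subunit gene Pfkm had 6.72 in BER+DNP, 6.69 in BER, 7.18 in DNP and 6.93 in control, both berberine arrays lying below both others. The differences were -0.24 in BER minus control and -0.45 in BER+DNP minus DNP. Muscle markers, all 5 of 5 measured, had summed linear signals of 339 in BER+DNP and 348 in BER, against 448 in DNP and 416 in control. Acta1, the skeletal actin gene, carried this pattern, and the other 4 summed to 138 in BER+DNP and 166 in BER, against 164 in DNP and 152 in control, a comparison added after seeing the data. The median difference of all 5 was -0.01 in BER minus control, with 2 of 5 above 0, and -0.28 in BER+DNP minus DNP, with 0 of 5 above 0. Their part in the Pfkm values was not tested. The liver-type subunit gene Pfkl had 6.03 in BER+DNP, 6.01 in BER, 6.13 in DNP and 5.85 in control, and the platelet-type gene Pfkp 4.12 in BER+DNP, 3.74 in BER, 3.84 in DNP and 4.11 in control. Their differences in the berberine pairs had opposite signs, 0.16 and -0.10 for Pfkl and -0.37 and 0.28 for Pfkp (BER minus control first). Their second measured probe sets differed from these, with -0.07 and 0.09 for Pfkl and 0.14 and 0.02 for Pfkp, so no direction held across the probe sets of either gene.

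The PFKFB enzymes make and remove fructose-2,6-bisphosphate, the strongest activator of phosphofructokinase. Pfkfb3, the form with the greatest kinase bias, had 5.04 in BER+DNP, 5.01 in BER, 5.34 in DNP and 5.14 in control, or -0.13 in BER minus control and -0.30 in BER+DNP minus DNP. Its second probe set, at 4.01 in BER+DNP, 3.82 in BER, 3.64 in DNP and 4.16 in control, gave -0.34 and 0.37 there, so the probe sets disagreed in the presence of the antibody. Pfkfb4 had 3.88 in BER+DNP, 3.84 in BER, 3.90 in DNP and 4.21 in control, so the control array alone stood above 3 close values. Pfkfb2 had 5.18 in BER+DNP, 5.09 in BER, 5.21 in DNP and 5.03 in control, and its second probe set, with 4.61 in BER+DNP, 4.67 in BER, 4.23 in DNP and 4.49 in control, was lowest in DNP where the first was highest.

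Aldolase and triose phosphate isomerase deliver the 3-carbon sugars. Aldoa, the main aldolase gene outside liver and brain, was read by 5 probe sets, all of a design that may also bind related transcripts. The brightest had 7.84 in BER+DNP, 8.05 in BER, 7.73 in DNP and 8.16 in control. Its -0.43 was the lowest in DNP minus control among the brightest probe sets of the members, and BER+DNP minus BER gave -0.21. The other 4 ranged from -0.24 to 0.25 in DNP minus control. Aldoc, the brain-type aldolase gene, had 3.21 in BER+DNP, 3.41 in BER, 3.18 in DNP and 3.59 in control, close to the filter, and was likewise lower in both antibody arrays than in both others. Tpi1 had 6.28 in BER+DNP, 6.22 in BER, 6.29 in DNP and 6.22 in control, a spread of 0.08, and its second measured probe set gave -0.02 in BER minus control and -0.23 in BER+DNP minus DNP. Of 11 members with several measured probe sets, Tpi1 was the one with all of them below 0 in both berberine pairs (9.09%, against 7.87% of all such genes). Its brightest probe set lay close to 0 there, at -0.003 in BER minus control and -0.012 in BER+DNP minus DNP.

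The middle steps oxidise glyceraldehyde phosphate and make the first ATP. The middle control probe set of Gapdh, the gene of the oxidising step, had 10.08 in BER+DNP, 10.02 in BER, 10.08 in DNP and 9.89 in control. That of the 3′ end had 7.59 in BER+DNP, 7.53 in BER, 7.57 in DNP and 7.56 in control, and that of the 5′ end 6.53 in BER+DNP, 6.50 in BER, 6.61 in DNP and 6.46 in control. All 3 lay within 0.19 across the arrays, and the 3′ minus 5′ gap of Gapdh was 1.06 in BER+DNP and 1.03 in BER, against 0.96 in DNP and 1.11 in control. For beta-actin the same gap was 2.69 in BER+DNP and 2.78 in BER, against 2.33 in DNP and 2.52 in control. Pgk1, which encodes the kinase that makes the ATP, had 4.82 in BER+DNP, 4.58 in BER, 4.89 in DNP and 4.85 in control. As with Hk3, the BER array alone was low.

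Mutase, enolase and pyruvate kinase finish the pathway. Pgam2, the muscle-type mutase gene, had 5.00 in BER+DNP, 4.96 in BER, 5.33 in DNP and 4.83 in control. Its 0.49 in DNP minus control was the highest of the group there, but BER+DNP minus BER gave 0.05. Bpgm, which encodes the enzyme that makes 2,3-bisphosphoglycerate in red cells, had 3.34 in BER+DNP, 2.92 in BER, 3.33 in DNP and 3.04 in control, so BER and control read below the filter. This gave 0.29 in DNP minus control and 0.42 in BER+DNP minus BER. The second measured Bpgm probe set, with a mean of 3.14 close to the filter, gave -0.10 and -0.08 there, so the direction depended on the probe set. Eno3, the muscle-type enolase gene, had 3.55 in BER+DNP, 3.79 in BER, 3.68 in DNP and 3.83 in control. Pkm, the pyruvate kinase gene of most tissues, had 6.16 in BER+DNP, 6.44 in BER, 6.37 in DNP and 6.35 in control, and only the BER+DNP array stood below the others, which lay within 0.09 of each other.

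Lactate dehydrogenase reduces pyruvate to lactate. Ldha, the gene of the subunit that favours lactate production, had 4.05 in BER+DNP, 3.85 in BER, 4.48 in DNP and 4.14 in control. Both berberine arrays lay below both others, with -0.29 in BER minus control and -0.43 in BER+DNP minus DNP, and the antibody arrays lay above their partners, with 0.34 in DNP minus control and 0.20 in BER+DNP minus BER. Ldha was read by 1 probe set. Ldhb, the gene of the other subunit, had 6.54 in BER+DNP, 6.36 in BER, 6.50 in DNP and 6.50 in control, and its other 2 measured probe sets gave -0.15 and 0.02 in BER minus control and -0.22 and 0.04 in BER+DNP minus DNP.

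Lactate leaves cells through the monocarboxylate transporters. Slc16a3 had 4.34 in BER+DNP, 4.72 in BER, 4.19 in DNP and 4.33 in control. The BER array was highest, with the highest difference of the group in BER minus control, 0.39, while BER+DNP minus DNP gave 0.16. The 2 probe sets of Slc16a1, which encodes MCT1, had means of 2.30 and 1.77, below the filter.

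The pyruvate dehydrogenase complex decides how much pyruvate enters the citric acid cycle. Pdha1, which encodes the catalytic alpha subunit, had 7.29 in BER+DNP, 7.19 in BER, 7.38 in DNP and 7.39 in control, while its second probe set had 5.07 in BER+DNP, 4.92 in BER, 4.93 in DNP and 4.64 in control. The first gave -0.20 and the second 0.28 in BER minus control, so the direction for Pdha1 depended on the probe set. Pdhb, the gene of the beta subunit, had 3.81 in BER+DNP, 3.72 in BER, 4.11 in DNP and 3.78 in control, and the DNP array alone was high. Dlat, the gene of the acetyltransferase core, lay just under the filter, its brightest probe set having 3.35 in BER+DNP, 2.91 in BER, 2.99 in DNP and 3.23 in control.

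The kinases PDK1 to PDK4 phosphorylate and inactivate the complex. Pdk3 had 2.84 in BER+DNP, 3.34 in BER, 3.35 in DNP and 3.61 in control. Each treated array lay below control and the combined treatment lay lowest, with a log2 difference of -0.77. The step was -0.27 in BER minus control, -0.50 in BER+DNP minus DNP, -0.26 in DNP minus control and -0.50 in BER+DNP minus BER. Its BER+DNP signal lay below the filter, it was read by 1 probe set and it was not 1.5-fold lower with 32 added to the linear signals (-0.17). Pdk1, a target of HIF, had 5.43 in BER+DNP, 5.38 in BER, 5.41 in DNP and 5.41 in control. Pdk2 had 3.38 in BER+DNP, 3.22 in BER, 3.46 in DNP and 3.37 in control, and Pdk4, which is induced by fasting in many tissues, had a mean of 1.61.

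Where a gene had several probe sets, these often differed by as much as the arrays did. Among 11 members with 2 or more measured probe sets, 26 in all, the probe sets of a gene were spread over a median of 0.18 in BER minus control and 0.26 in BER+DNP minus DNP, against 0.26 and 0.24 for 4089 such genes overall. They all had the same sign in 5 of 11 genes in each of these comparisons (45.5%, against 41.1% and 42.1% overall). The widest spreads were 0.51 for Pfkp in BER minus control and 0.67 for Pfkfb3 in BER+DNP minus DNP. Of the 42 measured probe sets of the members 9 had a suffix of the type that can cross-hybridise. The 29 probe sets below the filter ranged from -0.32 to 0.38 in BER minus control and from -0.31 to 0.43 in BER+DNP minus DNP, so no dim probe set reached 1.5-fold in either.

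**Figure D3:**
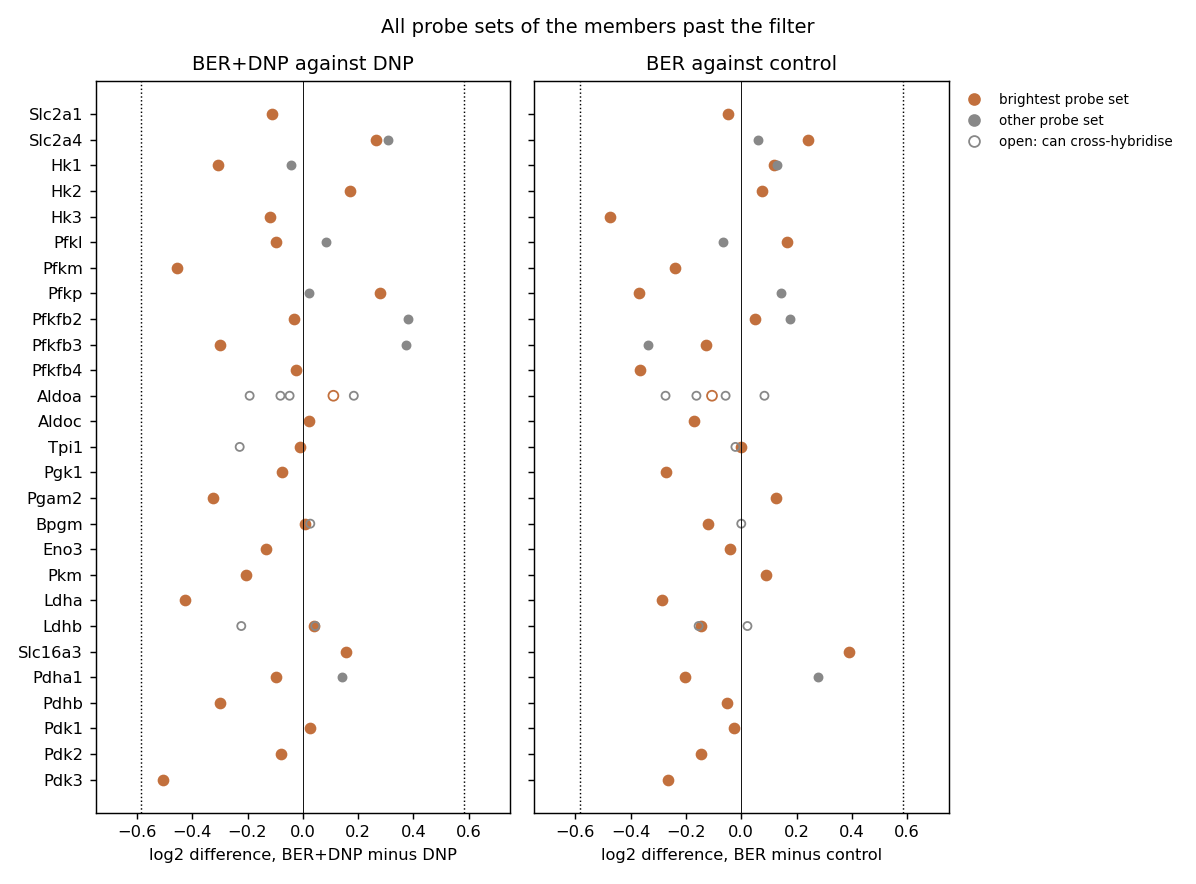
Log2 difference (horizontal axes) of all 42 measured probe sets of the members in BER+DNP minus DNP (left) and BER minus control (right), 1 line per gene in pathway order, with the brightest probe set in orange, others in grey, open circles for those that can cross-hybridise and dotted lines at 1.5-fold. No circle reaches a dotted line, and the circles of Pfkfb3, Pdha1 and Aldoa lie on both sides of 0 in at least 1 panel.

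Anti-DNP IgE gave a lean in the other direction. The median of the members was 0.06 in DNP minus control, where the median of all genes was 0.02, and 0.05 in BER+DNP minus BER, where it was 0.00. Reading each gene by the median of its probe sets turned the sign in DNP minus control, to -0.03. Above 0 in both of these pairs, which share no array, lay 14 of 27 members (51.9%, against 29.4% of all genes), and below 0 in both lay 6 (22.2%, against 26.0%). DNP minus control and BER minus control share the control array, and BER+DNP minus DNP and BER+DNP minus BER share the BER+DNP array, so the lean with berberine and the lean with the antibody are not separate observations. Cell markers also differed in the antibody pairs. Over the 6 measured mast cell markers the median was 0.24 in DNP minus control and 0.14 in BER+DNP minus BER, with 5 of 6 above 0 in each. Of all 12585 genes, 6706 were above 0 in DNP minus control and 6142 in BER+DNP minus BER. The median signal of all 14 mast cell markers, dim ones included, went the other way. It was 2.64 in DNP against 2.91 in control, and 2.85 in BER+DNP against 3.0 in BER. Over the 3 measured markers of blood cells in general the median difference was -0.18 in DNP minus control and -0.29 in BER+DNP minus BER. The median signal of all 7 did not follow this, with 3.21 in DNP against 3.02 in control, and 2.79 in both BER+DNP and BER. Summed over the whole lists, linear signals of the 14 mast cell markers were 218 in BER+DNP, 190 in BER, 216 in DNP and 190 in control, and those of the 7 general markers 141 in BER+DNP, 170 in BER, 150 in DNP and 166 in control. Their part in the members' lean was not tested. In BER+DNP minus control, where both treatments were combined, the members' median was 0.00 and that of all genes 0.00, with 13 members above 0 and 14 below.

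Other genes of the pathway were read from 5 lists holding 66 genes, of which 46 were measured. In BER minus control their median was 0.04 and 0 of 46 passed 1.5-fold, against 1.99% of all genes. In BER+DNP minus DNP it was -0.03, with 1 gene higher and 1 lower, 2 of 46 against 1.21% of all genes. The gene that was higher was Pck2, which encodes the mitochondrial enzyme that makes phosphoenolpyruvate and is a known ATF4 target, with 5.69 in BER+DNP, 5.51 in BER, 5.10 in DNP and 5.10 in control. Both berberine arrays stood above both others, with 0.59 in BER+DNP minus DNP and 0.41 in BER minus control. The lower gene was Mlx, which encodes the partner of the glucose-sensing factors MondoA and ChREBP, with 5.30 in BER+DNP, 5.22 in BER, 5.90 in DNP and 5.73 in control. Its differences were -0.60 in BER+DNP minus DNP and -0.51 in BER minus control, but its second measured probe set gave -0.16 and 0.17 there. These counts rest on brightest probe sets. A second measured probe set of Vegfa, from the list of glucose-sensing and hypoxia regulators, also passed 1.5-fold in BER+DNP minus DNP, at 0.62. It gave 0.455 in BER minus control, and the brightest Vegfa probe set gave 0.14 and 0.12 in these comparisons.

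Hif1a, which encodes the oxygen-regulated subunit of HIF that drives many glycolysis genes, had 3.35 in BER+DNP, 3.40 in BER, 3.80 in DNP and 3.94 in control. Of 46 measured other pathway genes, 1 was 1.5-fold higher in BER+DNP than in control (Pck2, 0.59) and 1 was lower (Hif1a, -0.59). Of all genes, 1.78% passed there in either direction and 0.874% were lower. The 3 other Hif1a probe sets, all below the filter, were also lower in both berberine pairs. They gave -0.29, -0.14 and -0.69 in BER minus control and -0.21, -0.10 and -0.30 in BER+DNP minus DNP. HIF itself is controlled mainly through protein stability, which arrays do not measure.

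Pyruvate reaches the dehydrogenase through the mitochondrial pyruvate carrier. Mpc1, which encodes 1 of its subunits, had 3.52 in BER+DNP, 3.41 in BER, 4.01 in DNP and 3.88 in control. Both berberine arrays lay below both others, with -0.49 in BER+DNP minus DNP and -0.47 in BER minus control. Tigar, which encodes a phosphatase that lowers fructose-2,6-bisphosphate, had 4.81 in BER+DNP, 4.78 in BER, 5.26 in DNP and 5.18 in control, or -0.45 in BER+DNP minus DNP and -0.40 in BER minus control. A second measured Tigar probe set gave -0.08 and -0.32. Slc2a6, which encodes the transporter GLUT6, went the other way, with 4.99 in BER+DNP, 4.97 in BER, 4.63 in DNP and 4.40 in control, or 0.35 in BER+DNP minus DNP and 0.57 in BER minus control.

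The remaining genes at the ends of their lists differed less. Ldhc, the testis form of lactate dehydrogenase, gave -0.38 in both berberine pairs, and Slc2a9, a urate transporter gene, gave 0.28 in BER minus control and 0.38 in BER+DNP minus DNP. Among 5 measured genes of the pentose phosphate pathway, the extremes, with BER minus control first, were Tkt, the transketolase gene (0.20 and 0.14, and -0.10 and -0.07 in its second measured probe set), Pgls, of lactone hydrolysis (-0.19 and -0.01), and H6pd, the form of the endoplasmic reticulum (0.07 and -0.11). Pdhx, which encodes the component that ties the E3 enzyme into the pyruvate dehydrogenase complex, gave 0.18 and 0.15. The stress-induced inhibitor gene Ddit4 gave 0.40 and 0.17, and Txnip, which restrains glucose uptake in many cells, 0.11 and 0.21, or -0.06 and 0.24 in its second probe set.

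**Figure D4:**
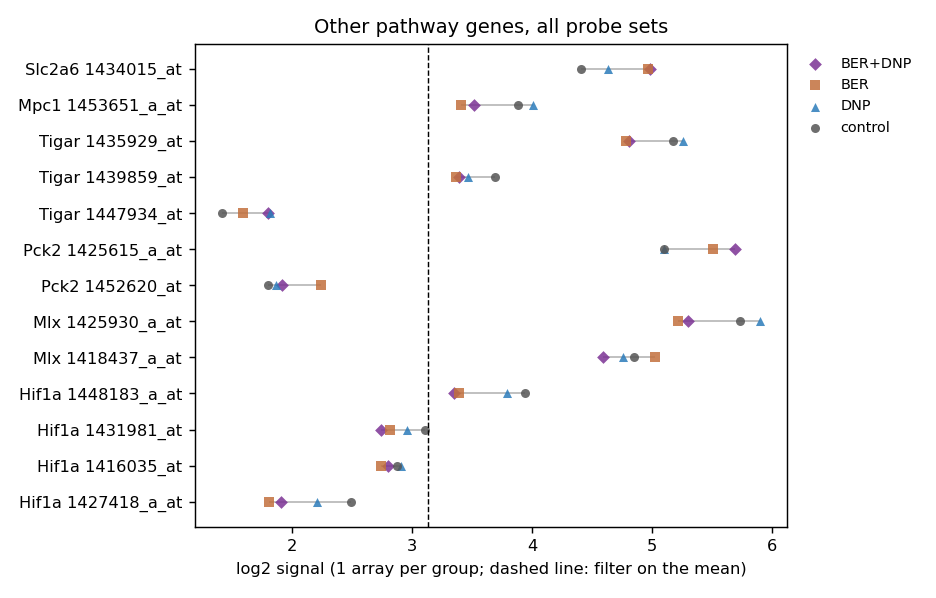
Log2 signal (horizontal axis) of all probe sets of 6 other pathway genes on the BER+DNP, BER, DNP and control arrays (1 array per group, no error bars), with the filter as a dashed line. The BER+DNP and BER symbols lie left of the DNP and control symbols for Mpc1 and all 4 Hif1a probe sets, and right of them for Slc2a6 and the brighter Pck2 probe set.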

How the data were processed

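RNA from 4 cultures labelled MC/9 was measured on 1 Affymetrix array each. The deposited log2 signals came from Affymetrix Expression Console, per the submitters' processing notes, and its version, algorithm and background correction were not given in the sources. The log2 scale was read from the values. The 45101 signals per array were used as deposited, without the 64 control probe sets except where named. Symbols came from a platform annotation of 2016: 34945 probe sets had 1 symbol, 932 several and 9160 none. A gene was read by its brightest probe set, with a filter at a mean of 3.138. Differences are single arrays subtracted in the order named, with no test; steps were tested on simulated data. All 37 members are named, and other pathway genes if 1.5-fold apart or at the end of their list in a berberine pair, and 6 of these were chosen for a figure after their values were seen. Members and lists were chosen with earlier results of these data known. Alternatives changed the filter, probe set rule, added constant, normalization and probe set type. Python 3.11.15, numpy 2.4.6, pandas 2.3.3, scipy 1.17.1 and matplotlib 3.10.9 were used.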

Additional observations from a re-analysis of the deposited data

Results flagged for a closer look

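Among the members' 42 probe sets past the filter and the brightest regular probe sets of the other 46 pathway genes measured, 3 had differences for which the BER minus control and BER+DNP minus DNP values had opposite signs and lay at least 1.5-fold apart. With 1 array a group this was not tested. They made up 2 of 42 probe sets of the members (4.76%), against 4.40% of all 22519 probe sets past the filter, and 1 of 46 other pathway genes (2.17%), against 3.93% of all 12585 genes. For the second probe set of Pfkfb3 the difference between them (BER+DNP minus DNP less BER minus control) was 0.71, while the brightest probe set of the gene gave -0.30 in BER+DNP minus DNP and -0.13 in BER minus control. For the brightest Pfkp probe set it was 0.65, while a second probe set gave 0.02 in BER+DNP minus DNP and 0.14 in BER minus control. For the pyruvate carboxylase gene Pcx, which had 5.29 in BER+DNP, 4.90 in BER, 4.95 in DNP and 5.28 in control, it was 0.72, and 4 control probe sets of that gene gave between -0.02 and 0.18 in BER+DNP minus DNP and between -0.07 and -0.01 in BER minus control.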

How the results depend on the processing

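Over the main analysis and 7 alternatives, 1 of them (adding the Gapdh control probe sets) chosen after seeing the data, no measured member was 1.5-fold apart in BER against control, BER+DNP against DNP, DNP against control or BER+DNP against BER. The members' median ranged from -0.11 to -0.03 in BER minus control, from -0.09 to -0.04 in BER+DNP minus DNP, from -0.03 to 0.07 in DNP minus control, from 0.03 to 0.05 in BER+DNP minus BER and from 0.00 to 0.02 in BER+DNP minus control. The sign in DNP minus control turned, to -0.03, only where a gene was read by the median of its probe sets. The 1 member lower in BER+DNP against control, Pdk3, left the count at 0 with the filter at the 75th percentile, where 17 members were measured and Pdk3 was not, and at 0 with 32 added to the signals. Members below 0 in both berberine pairs numbered 7 of 17 under that stricter filter, against 13 of 27 in the main analysis. Those above 0 in both numbered 5 of 21 with the median of all probe sets, against 3 of 27, so this count depended on how probe sets were read. The shares of all genes, 29.7% below 0 in both and 25.4% above, are given for the main analysis only. Over the 5 comparisons, 44 differences of single members changed by 0.1 or more with 32 added to the signals, and 91 did not. Where a gene was read by the median of its probe sets, 31 changed that much and 74 did not. Quantile normalization changed 1 and left 134, and the other alternatives changed none. With 32 added, 0.183% of all genes were 1.5-fold apart in BER against control, against 1.99% in the main analysis. The cause of these changes was not tested. No replicate could be left out with 1 array a group. No paired analysis was possible because each group holds 1 array and the groups share fewer than 2 replicate numbers. An additive fit of both treatments over the 4 arrays, with only 1 degree of freedom for its error, is possible in principle but was not run. Low signals limit Pdk3, Bpgm and Aldoc most.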
